A study of Mus musculus with 9 samples.

Results

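Type I interferon-stimulated genes were followed in liver macrophages as a set of 34 antiviral genes, which are the rows of the deposited count table that carry their symbols, out of 23413 genes in all. Every member was found in the table and had enough counts to be tested, among 11393 genes tested. RNA-seq libraries came from F4/80+CD11b+Gr1low liver macrophages, sorted as Kupffer cells (KCs, the resident macrophages of the liver) from male C57BL/6 mice. All mice were 5 weeks old at the start of 8 weeks on a diet, and the labels name 1 mouse for each library. The NC group (n = 2) was fed normal chow with 10 kcal% fat, without injections named in the methods. The HFD groups were fed 60 kcal% fat and received, from week 3 and every 5 days, 6 intraperitoneal doses of the vehicle PEG3000 (Veh, n = 3) or of 2 mg/kg DPI in that vehicle (DPI, n = 4). DPI is diphenyleneiodonium, which the study used as an agonist of the receptor GPR3. The sample labels instead mention a treatment of purified cells with 500 nM DPI for 24 h, and the animal dosing of the series' design was followed here. The comparisons ask how cells of HFD mice given vehicle differ from those of NC mice, and how cells of DPI-treated HFD mice differ from both.

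Type I interferons are cytokines released when a cell senses viral nucleic acid or certain danger signals. They bind the receptor made of IFNAR1 and IFNAR2, the kinases JAK1 and TYK2 phosphorylate STAT proteins, and these join IRF9 in a complex that binds interferon-stimulated response elements in target promoters. The induced genes sense viral RNA, block its translation or copying, and feed back on the pathway itself, and macrophages express many of them at a low level without infection.

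Promoters of these genes are the place where the pathway acts, so the letters of the response element were looked up in RefSeq promoter windows of GRCm38.p6, from 250 bases before to 50 bases after each annotated start. The search was for TTTCNNTTTC on either strand (GAAANNGAAA when read on the other strand), overlapping matches included. Of the 34 genes, 25 matched the promoter table by symbol, and 12 of these 25 (48%) held at least 1 match, against 1079 of 27025 genes (3.99%) in the whole table. A match is a description of the letters and not a binding site shown here. The sequences below show, 5′ to 3′ on the gene's strand and in capitals, the matches of Ifit3, which passed the threshold in HFD, and of 4 genes that lay higher in every HFD vehicle library than in both NC libraries. Of the 12 genes with a match, 8 had a log2 fold change above 0 for HFD vehicle against NC. Those below 0, Ifih1, Oas3, Eif2ak2 and Trim30a, are not shown. Isg20 is shown beside the matched genes as a gene that passed the threshold and held no match in any of its 3 windows. Ifit3 lies at chr19:34583279-34583528 (plus strand), Rsad2 at chr12:26456538-26456597 (minus strand), Oas1a at chr5:120907526-120907570 (minus strand), Bst2 at chr8:71537562-71537627 (minus strand), Isg15 at chr4:156200850-156200921 (minus strand) and Isg20 at chr7:78913174-78913423 (plus strand).
Ifit3: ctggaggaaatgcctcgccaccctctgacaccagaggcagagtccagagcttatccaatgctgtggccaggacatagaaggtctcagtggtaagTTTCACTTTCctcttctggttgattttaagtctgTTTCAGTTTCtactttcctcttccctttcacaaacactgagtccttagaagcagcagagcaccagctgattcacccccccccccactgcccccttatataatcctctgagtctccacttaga
Rsad2: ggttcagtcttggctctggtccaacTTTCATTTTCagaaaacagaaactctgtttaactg
Oas1a: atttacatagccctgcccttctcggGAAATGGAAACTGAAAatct
Bst2: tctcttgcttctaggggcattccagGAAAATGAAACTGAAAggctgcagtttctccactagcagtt
Isg15: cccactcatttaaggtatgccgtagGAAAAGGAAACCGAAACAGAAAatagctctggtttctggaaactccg
Isg20: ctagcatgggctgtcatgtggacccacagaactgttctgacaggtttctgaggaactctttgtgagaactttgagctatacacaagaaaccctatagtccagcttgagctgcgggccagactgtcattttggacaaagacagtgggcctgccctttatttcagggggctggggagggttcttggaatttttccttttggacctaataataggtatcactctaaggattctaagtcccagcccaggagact
The runs of capitals in Oas1a, Bst2 and Isg15 are overlapping matches, and the windows of Ifit3 and Isg20 hold all 250 bases before the start.

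Depth and purity set the limits of every value. Total counts were 4666522 and 4801564 with NC, 4565492 to 5518176 with vehicle and 3534325 to 15585775 with DPI, and 27% to 44.5% of a library's counts fell on the ribosomal RNA precursor Rn45s. Levels are given in CPM, counts scaled to a common library size with TMM factors. On this scale 3 counts, below which a gene was treated as not seen, equal 0.184 to 1.02 CPM. The label of KCs was only partly borne out by defining markers. Clec4f, a C-type lectin found on KCs, had counts of 0 and 244 with NC, of 42, 0 and 0 with vehicle and of 219, 6, 4 and 6 with DPI, and Marco did not exceed 1 count in any library. The summed level of 13 KC markers lay at 237 to 272 CPM with NC, 499 to 994 CPM with vehicle and 283 to 564 CPM with DPI, most of it the transcriptional regulator Id3, at 219.5 of 237 CPM in NC library 1 and at 918 of 994 CPM in vehicle library 2. With HFD 4 of the 8 KC markers tested had a log2 fold change above 0, of which Id3 passed the threshold given below (1.76), and 4 were below 0, among them Clec4f, Cd5l and Xlr, none of which passed. The 9 monocyte markers summed to between 3638 and 6522 CPM over the 9 libraries. The rank correlation over genes was 0.74 between the NC libraries and 0.838 or more within the other groups.

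The 34 genes spanned a wide range of levels. Compared as CPM divided by exon length in kilobases, Ifitm3, a membrane protein that blocks viral entry, was the most abundant in each group, at a mean of 3176 with NC, 3897 with vehicle and 4095 with DPI. Bst2, which encodes tetherin and holds budding virions at the cell surface, came next with means of 41.0, 76.6 and 68.9. Ifi44, an interferon-induced cytoplasmic protein, was the lowest, with 3 and 1 counts in the NC libraries. The average over the 34 genes of log2 CPM was 4.26 and 4.20 in the NC libraries, 5.21, 4.69 and 5.12 in vehicle libraries 1 to 3, and 5.25, 4.75, 4.58 and 4.43 in DPI libraries 1 to 4. Both NC libraries lay below every HFD library on this average, and the vehicle and DPI libraries overlapped. As summed CPM without Ifitm3 this did not hold, with NC library 1 at 1054, above DPI libraries 2 (1036) and 4 (893). On that sum both NC libraries stayed below every vehicle library (1095 to 1565). In bulk RNA, fewer cells that express a gene and less of its RNA per cell cannot be told apart.

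**Figure D1:**
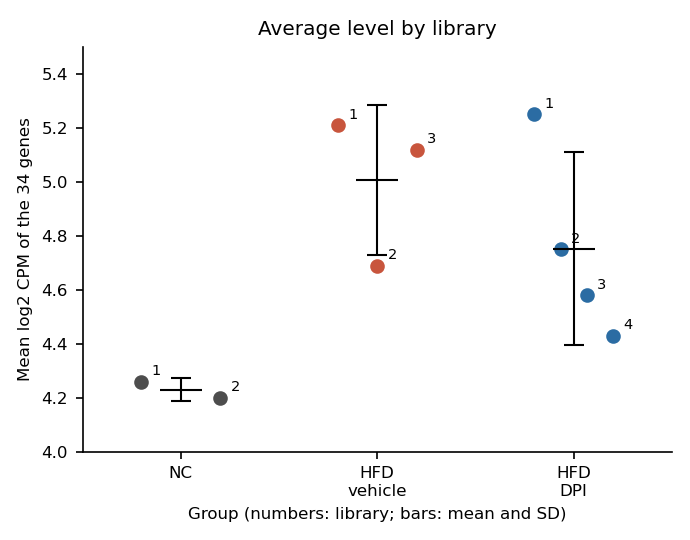
Mean log2 CPM of the 34 interferon-stimulated genes (vertical axis) in each library, by group; numbers beside the points are library numbers, and bars give the group mean and SD. The NC libraries sit at 4.26 and 4.20, the vehicle libraries at 4.69 to 5.21 and the DPI libraries at 4.43 to 5.25.

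Single genes did not all follow that average, and the NC libraries often disagreed. Of the 34 genes, 5 were more than 4-fold higher in NC library 1 and 4 more than 4-fold higher in NC library 2, which together is 26.5% of the genes against 26.4% of all genes tested. DPI library 1 held the highest level among the 9 libraries of 12 of the 34 genes (35.3%, against 9.93% of all genes), and neither it nor vehicle library 1 held the lowest level of any. The same DPI library was the deepest, had the most Clec4f among DPI libraries, and carried 288 CPM of summed sinusoidal endothelial markers, against 19.7 to 137 CPM in the other DPI libraries. Whether these values bear on its interferon-stimulated genes was not tested.

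**Figure D2:**
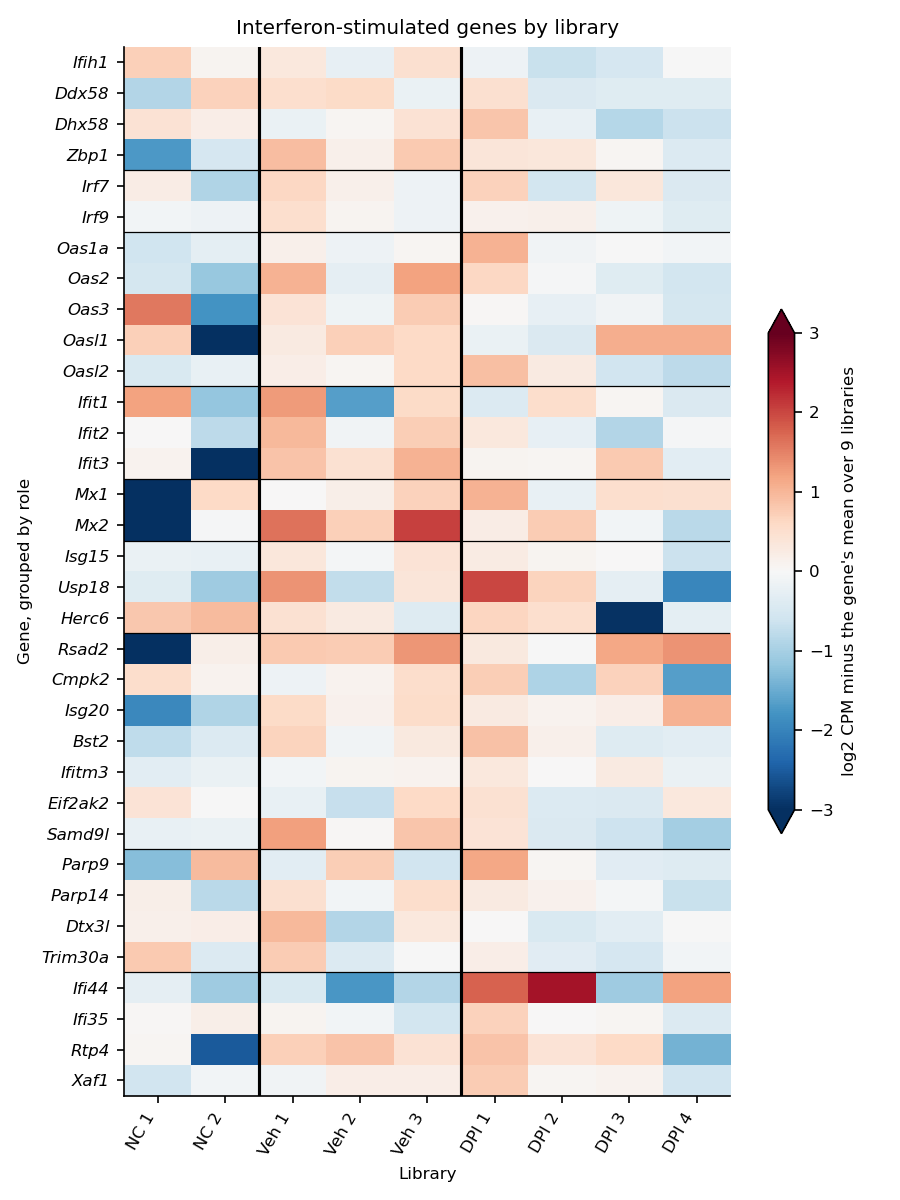
Log2 CPM of each of the 34 genes (rows, grouped by role with thin lines) in each of the 9 libraries (columns, groups separated by thick lines), as the difference from that gene's mean over the libraries; red is above and blue below the mean, and differences past 3 are drawn at the end of the scale. The deepest blue cells lie mostly in the NC libraries, at Oasl1 and Ifit3 in NC library 2 and at Mx1, Mx2 and Rsad2 in NC library 1.

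HFD mice given vehicle were compared with NC mice, for which the methods name no injections. Diet and injections therefore cannot be told apart in the differences called HFD here. A gene was said to rise or fall where it had an unadjusted p under 0.05 and at least a 2-fold change (1 on the log2 scale), the threshold of the study's methods, applied here to edgeR's quasi-likelihood test. Of the 34 genes, 5 rose (14.7%), against 7.03% of all genes tested, and 0 fell, against 4.63%. The genes that rose were Zbp1, Oas2, Ifit3, Mx2 and Isg20, and they belong to 5 different roles. The same 5 were the members with a nominal edgeR p under 0.05, a rule that 13% of all genes met, so their share lay near that of all genes on the p alone. With Benjamini-Hochberg adjustment over all genes tested, 0 of the 34 passed an adjusted p of 0.05, against 0.0614% of all genes, and the smallest adjusted p among them was 0.182. By the DESeq2 Wald test 2 of the 34 passed the adjustment, Zbp1 and Isg20, beside 312 of all genes. The median log2 fold change of the 34 genes was 0.47, with 24 above 0 and 10 below, beside a median of 0.03 over all genes tested. For 13 of the 34 (38.2%, against 15% of all genes) every vehicle library lay above both NC libraries, and for 1 gene, Herc6 (2.94%, against 12.5%), every vehicle library lay below them. Herc6 encodes the mouse ligase that attaches ISG15 to proteins. These counts rest on 2 NC libraries. Without NC library 1, 8 genes rose, beside 8.13% of all genes, and 21 lay higher without overlap, beside 28.5%. Without NC library 2, 5 passed the adjusted p, beside 568 of all genes, and in NC library 1 alone Mx2 and Rsad2 had no count. Leaving out vehicle library 1 or 3, or DPI library 1, 2 or 3, left 3 genes that rose, Zbp1, Oas2 and Isg20, beside 5.97% to 6.92% of all genes. With library size alone in place of TMM the same 3 rose and the median was 0.17, while 4.73% of all genes rose, 8.19% fell and their median was -0.26.

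**Figure D3:**
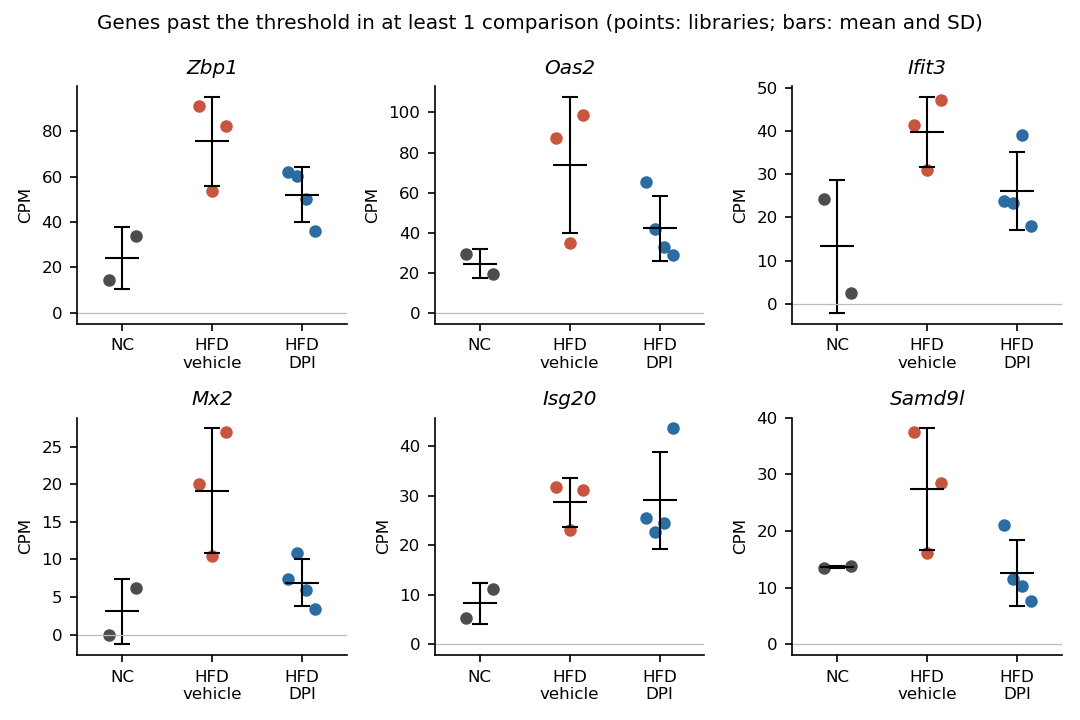
Level in CPM (vertical axis, linear, a panel per gene) of the 6 genes that passed the threshold in at least 1 comparison; points are libraries of the NC, HFD vehicle and HFD DPI groups and bars give the mean and SD. All vehicle points lie above both NC points in each panel, and vehicle and DPI points overlap in each panel.

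Among the sensors, Zbp1 (chromosome 2, from 173206612 to 173218923, GRCm38), which binds Z-form nucleic acid and can start necroptosis, had 14.4 and 33.6 CPM in the NC libraries and 91.0, 53.5 and 82.3 CPM in the vehicle libraries. The vehicle libraries lay above both NC libraries. Its mean was 24.0 ± 13.6 CPM (SD, n = 2) with NC and 75.6 ± 19.6 CPM (SD, n = 3) with vehicle. Zbp1 rose by 1.65 on the log2 scale (SE 0.45, edgeR adjusted p = 0.182), and it passed the threshold under every alternative run. The cytosolic RNA sensors did not pass. Ifih1, which encodes MDA5, had 34.2 and 22.0 CPM with NC and 17.6 to 29.0 CPM with vehicle, and the groups overlapped. Ddx58, which encodes RIG-I, and Dhx58, which encodes their regulator LGP2, had log2 fold changes of 0.23 and -0.21.

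The OAS family makes short oligoadenylates that switch on RNase L. Oas2 (chromosome 5, from 120730333 to 120749853) had 29.5 and 19.2 CPM with NC and 87.5, 35.0 and 98.9 CPM with vehicle. Vehicle library 2 lay just above NC library 1, and the other two vehicle libraries lay far above both. Oas2 rose by 1.60 on the log2 scale (SE 0.51, edgeR adjusted p = 0.258), and without NC library 2 its log2 fold change of 1.34 no longer passed. Oas1a, at 62.1 and 76.6 CPM with NC and 84.7 to 105 CPM with vehicle, did not overlap between the groups either, at a log2 fold change of 0.47 (SE 0.39) that did not pass. Its reads can be shared with the near-identical Oas1g, so its level is uncertain. Oasl2 and Oasl1 had log2 fold changes of 0.64 and 0.79, and Oasl1 had 15.5 CPM in NC library 1 but 0.374 CPM in NC library 2. Oas3 was at 83.4 and 7.84 CPM with NC and at 25.2 to 47.3 CPM with vehicle, so all of the vehicle libraries lay between the NC libraries.

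The IFIT proteins bind the 5′ ends of viral RNA, and their genes stand together on chromosome 19, where Ifit2 and Ifit3 are 7.1 kb apart and Ifit3 and Ifit1 are 52.1 kb apart. Ifit3 had 24.2 and 2.43 CPM with NC and 41.3, 31.0 and 47.1 CPM with vehicle. The groups did not overlap, although the NC libraries differed by more from each other than NC library 1 did from vehicle library 2. Ifit3 rose by 1.58 on the log2 scale (SE 0.72, edgeR adjusted p = 0.38), and it did not pass without any single vehicle or DPI library, without NC library 2, with RLE factors or library size alone in place of TMM, or with only the 2 groups compared. The log2 fold change of Ifit3 was 0.74 without NC library 2 and 4.03 without NC library 1. Ifit2 and Ifit1 had log2 fold changes of 0.94 and 0.03, and reads of Ifit3 can be shared with its close copy Ifit3b. The Mx GTPases are a family known to trap viral nucleocapsids, and whether these mice make working Mx proteins was not tested. The Mx genes stand 72.4 kb apart on chromosome 16. Mx2 had 0 and 6.16 CPM with NC and 19.98, 10.5 and 27.0 CPM with vehicle, again without overlap. Mx2 rose by 2.63 on the log2 scale (SE 1.18, edgeR adjusted p = 0.371), and it did not pass without NC library 1, with a log2 fold change of 1.64, or without vehicle library 1, vehicle library 3 or any DPI library. It also did not pass with library size alone, in thinned counts, with only the 2 groups compared or with the replicate number as a block. Mx1 was at 1.46 and 25.2 CPM with NC and at 16.7 to 27.0 CPM with vehicle, with a log2 fold change of 0.64.

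Other effectors gave the second gene that passed in every setting. Isg20 (chromosome 7, from 78913424 to 78920396), an exonuclease that degrades single-stranded RNA, had 5.28 and 11.2 CPM with NC and 31.7, 23.0 and 31.2 CPM with vehicle. Every vehicle library lay above both NC libraries by at least as much as these differed. Isg20 rose by 1.80 on the log2 scale (SE 0.53, edgeR adjusted p = 0.224). Bst2 was at 32.2 and 41.8 CPM with NC and at 88.3, 51.0 and 68.1 CPM with vehicle, and its log2 fold change of 0.90 (SE 0.44, edgeR adjusted p = 0.405) did not pass. Among the alternatives run, Bst2 passed only without vehicle library 2. Rsad2 encodes viperin, which makes a chain-terminating nucleotide, and had 0 and 19.2 CPM with NC and 29.3, 28.8 and 43.4 CPM with vehicle. It did not overlap between the groups, and its log2 fold change of 1.81 (SE 1.06, edgeR adjusted p = 0.487) did not pass. That value was 0.82 without NC library 1 and 10.84 without NC library 2, where the NC count was 0. Cmpk2, a nucleotide kinase gene that starts 12.8 kb from Rsad2 on the other strand, had a log2 fold change of -0.15. Samd9l, an inhibitor of translation, had 13.5 and 13.8 CPM with NC and 37.5, 16.1 and 28.5 CPM with vehicle, and its log2 fold change of 1.00 (SE 0.59, edgeR adjusted p = 0.489) did not pass. Ifitm3 and Eif2ak2, which encodes the RNA-activated kinase PKR, had log2 fold changes of 0.30 and -0.23.

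Most of the regulators and ubiquitin-like genes showed small differences. Irf7 and Irf9, the transcription factors that amplify and carry the response, had log2 fold changes of 0.47 and 0.29. Isg15, a ubiquitin-like protein, was at 15.9 and 15.7 CPM with NC and at 17.6 to 24.5 CPM with vehicle, without overlap and at a log2 fold change of 0.47. Usp18, which removes ISG15 and damps the receptor, had a log2 fold change of 1.27 (SE 0.97). Parp9, Parp14, Dtx3l and Trim30a, an ADP-ribosylation and ubiquitin ligase group, lay between -0.15 and 0.57 on the log2 scale. Parp9 and Dtx3l overlap on opposite strands of chromosome 16, and the sources used here do not state whether the counting used the strand, so their reads may not be separable. Rtp4, a Golgi chaperone gene, was at 50.6 and 8.22 CPM with NC and at 65.4 to 87.4 CPM with vehicle, with a log2 fold change of 1.39 (SE 0.69, edgeR adjusted p = 0.414). Rtp4 did not pass here, but it passed with DESeq2, with no filter or with the filter of 10 counts, with the replicate number as a block, without DPI library 4 and without NC library 1, where the log2 fold change was 3.24 against 0.64 without NC library 2. Ifi44, Ifi35 and Xaf1 had log2 fold changes of -0.66, -0.27 and 0.43.

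Markers of other cells also differed between HFD vehicle and NC. The 9 B cell markers summed to 15.9 and 76.4 CPM with NC and to 115 to 200 CPM with vehicle, without overlap, and 9 of 9 had a log2 fold change above 0 (median 1.66). Summed levels of 8 conventional dendritic cell markers were 55.2 and 111 CPM with NC and 193 to 310 CPM with vehicle. With vehicle most of that sum was Ccr7, a chemokine receptor also found on other cells, at 0 and 46.7 CPM with NC and 115, 276 and 142 CPM with vehicle, and 5 of the 7 markers tested had a log2 fold change below 0 (median -0.53). For plasmacytoid dendritic cells, a main source of type I interferon, 11 markers summed to 66.3 and 97.8 CPM with NC and to 81.3 to 154 CPM with vehicle, and their marker Klk1 had no count in any library. Of their 8 markers tested, 7 had a log2 fold change above 0 (median 1.13). Sinusoidal endothelial markers summed to 249 and 375 CPM with NC and to 23.8 to 51.9 CPM with vehicle, and 5 of 9 fell while 1 rose. Hepatocyte markers summed to 300.5 and 454 CPM with NC and to 165 to 206 CPM with vehicle, also without overlap, with 9 of 10 below 0 (median -2.03) and 3 that fell. Neutrophil markers ranged from 1481 to 3408 CPM with NC and from 2607 to 4053 CPM with vehicle, and 2 of 11 fell. T and NK cell markers summed to 115 and 398 CPM with NC and to 345 to 508 CPM with vehicle, with overlap. Of the 14 tested 10 had a log2 fold change above 0 (median 0.50), and 3 rose, Il2rb, Cd3e and Lck. Of the 9 monocyte markers, 4 were above 0 and 5 below (median -0.10). Among them Ly6c2 rose, at a log2 fold change of 1.04, and Ccr2 fell, at -1.23. The part of these differences in the interferon-stimulated genes was not tested.

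DPI was compared with vehicle in HFD-fed mice, a comparison that shares the vehicle libraries with the one before. Of the 34 genes, 1 fell at the threshold (2.94%, against 1.34% of all genes tested), which was Samd9l, and 0 rose, against 1.5%. No member had a nominal edgeR p under 0.05 other than Samd9l, beside 4.13% of all genes. With the adjustment, 0 of the 34 passed, as did 0% of all genes, the smallest adjusted p of a member was 0.999, and DESeq2 also gave 0. The median log2 fold change was -0.19, with 11 genes above 0 and 23 below, beside 0.04 over all genes tested. In the same comparison 9 of 9 sinusoidal endothelial markers had a log2 fold change above 0 (median 1.82) and 3 of them rose. Of 11 neutrophil markers 3 rose as well, the granule genes Camp, Ngp and Ltf, with a median of 0.17 over the list and sums of 966 to 5782 CPM with DPI. Of 8 plasmacytoid dendritic cell markers 7 were below 0 (median -0.30), with sums of 84.4 to 147 CPM with DPI that overlapped those with vehicle, and 0 passed. Of the 8 KC markers tested, 4 were above 0 and 4 below (median 0.07), and only Spic passed, as a fall with a log2 fold change of -2.25. The part of these markers in the values of the 34 genes was not tested. For 0 of the 34 genes did all DPI libraries lie above all vehicle libraries, against 3.38% of all genes, and for 0 did all lie below, against 2.48%. Single libraries moved these values in both directions. Without vehicle library 1, the median was -0.08 and 0 genes fell, beside 0.573% of all genes. Without vehicle library 2, 12 of the 34 genes were lower in every DPI library than in both remaining vehicle libraries, beside 10.3% of all genes, and these were Ifih1, Zbp1, Oas2, Oas3, Ifit1, Ifit2, Ifit3, Mx2, Isg15, Samd9l, Parp14 and Dtx3l. Without DPI library 1, the median was -0.49 and 3 genes were lower without overlap, beside 3.82% of all genes. Oas2 passed the threshold, with a log2 fold change of -1.14 or -1.10, without vehicle library 2 or DPI library 1.

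Samd9l (chromosome 6, from 3372257 to 3399572) had 37.5, 16.1 and 28.5 CPM with vehicle and 20.96, 11.6, 10.2 and 7.65 CPM with DPI. DPI library 1 lay above vehicle library 2, so the groups overlapped. Samd9l fell by 1.11 on the log2 scale (SE 0.48, edgeR adjusted p = 0.999), from a mean of 27.4 ± 10.7 CPM (SD, n = 3) to 12.6 ± 5.81 CPM (SD, n = 4), close to 13.7 ± 0.242 CPM (SD, n = 2) with NC. It did not pass without vehicle library 1, at -0.82, without vehicle library 3, at -1.09, or without DPI library 2, 3 or 4, at -1.08, -1.02 and -0.93, nor with library size alone in place of TMM, at -1.02, or with the replicate number as a block, at -0.94. Mx2 had 7.36, 10.9, 5.94 and 3.47 CPM with DPI, below vehicle libraries 1 and 3, and its log2 fold change of -1.48 (SE 0.88, edgeR adjusted p = 0.999) did not pass. It passed with only the 2 groups compared and without either NC library. Oas2 had 65.2, 41.8, 33.0 and 29.0 CPM with DPI, and its log2 fold change of -0.80 (SE 0.40, edgeR adjusted p = 0.999) did not pass. Zbp1 had 61.9, 60.5, 50.1 and 35.8 CPM with DPI, which overlapped vehicle library 2, at a log2 fold change of -0.54 (SE 0.35, edgeR adjusted p = 0.999).

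Isg20 had 25.5, 22.8, 24.5 and 43.7 CPM with DPI, where 3 of 4 libraries lay within the vehicle range or just under it, and its log2 fold change was 0.03 (SE 0.41). The IFIT genes had log2 fold changes of -0.53 (Ifit1), -0.75 (Ifit2) and -0.61 (Ifit3), all with overlap. The sensors Ifih1, Ddx58 and Dhx58 lay at -0.53, -0.44 and -0.17. Oas1a differed in the other direction, at 0.28 (SE 0.32), with DPI library 1 at 195 CPM and the other DPI libraries at 88.0 to 94.1 CPM, inside or near the vehicle range, and its log2 fold change was -0.08 without that library. Ifi44 had 2, 0 and 1 counts with vehicle and 52, 16, 1 and 20 counts with DPI. DPI libraries 1, 2 and 4 lay above every vehicle library, and DPI library 3 did not. The ratio of summed counts, scaled to library size, was 12.1 (exact 95% interval 4.01 to 59.8, which covers counting error only and not the spread between mice), and Ifi44 did not pass. It passed as higher with DESeq2, with only the 2 groups compared and without DPI library 3. The remaining members lay between -0.58 (Oas3) and 0.30 (Ifi35) on the log2 scale.

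**Figure D4:**
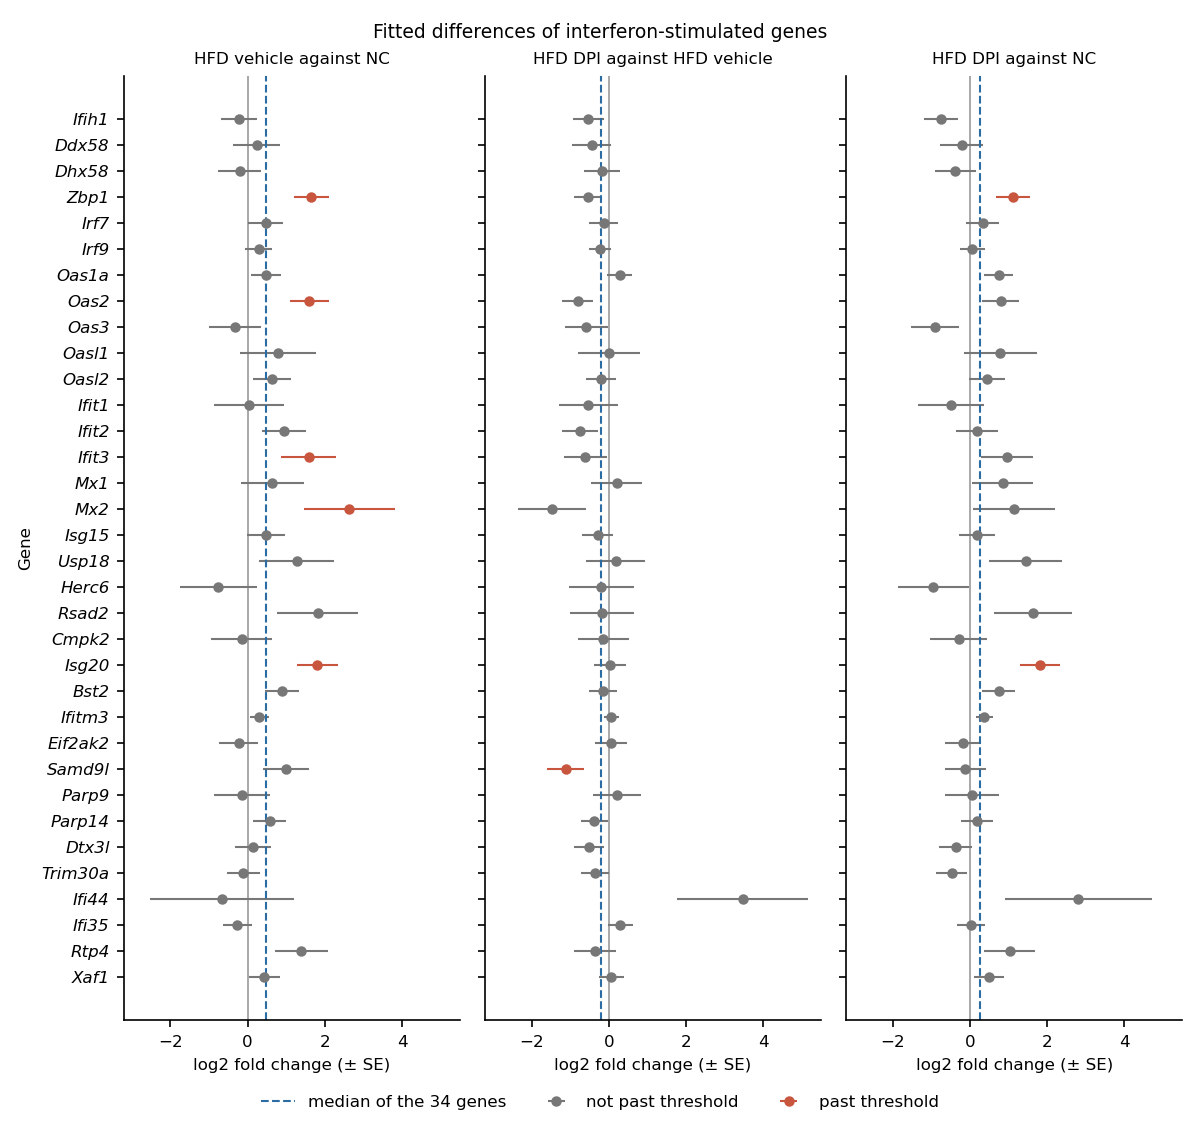
Fitted log2 fold change (horizontal axis) with its SE for each of the 34 genes (rows) in the 3 comparisons (panels); red points passed an unadjusted p under 0.05 with a change of at least 1 on the log2 scale, and the dashed line is the median of the 34 genes. The median lies at 0.47 for HFD vehicle against NC, at -0.19 for HFD DPI against HFD vehicle and at 0.26 for HFD DPI against NC.

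DPI-treated mice on HFD were also set beside NC mice, which shares both groups with the comparisons above. Of the 34 genes, 2 rose (5.88%, against 6.24% of all genes tested) and 0 fell (against 3.05%), and those that rose, Zbp1 and Isg20, were the members with a nominal edgeR p under 0.05, beside 10.7% of all genes. With the adjustment 0 of the 34 passed, against 0.00878% of all genes, with a smallest adjusted p of 0.257 by edgeR, and by DESeq2 1 passed, Isg20, beside 219 of all genes. Counts without overlap were 4 higher (11.8%, against 11.7% of all genes), namely Zbp1, Oas1a, Isg20 and Bst2, and 3 lower (8.82%, against 8.5%), namely Ifih1, Herc6 and Dtx3l. These shares were near those of all genes. The median log2 fold change was 0.26, with 23 above 0 and 11 below, beside 0.04 over all genes. It was 0.06 without DPI library 1, beside 0.03 over all genes, and 0.17 without NC library 2, where the median over all genes was higher, at 0.35. Zbp1 rose by 1.12 on the log2 scale (SE 0.43, edgeR adjusted p = 0.405), and it did not pass without NC library 1, at 0.64, or with library size alone in place of TMM, at 0.90. Isg20 rose by 1.82 on the log2 scale (SE 0.51, edgeR adjusted p = 0.257), and it passed under every alternative run. Without NC library 1, 5 genes rose, beside 7.13% of all genes, and 12 lay higher without overlap, beside 23.3% of all genes. Without NC library 2, 5 genes rose, which is the share of 14.7% seen over all genes, and 5 passed the adjusted p, beside 572 of all genes. In that setting 11 lay higher without overlap, beside 31.2% of all genes, and 6 lower, beside 26.1%. Without DPI library 4, 4 genes rose, beside 5.72% of all genes, and 10 lay higher without overlap, beside 15.3% of all genes. Without DPI library 2, 7 lay higher without overlap, beside 15.4% of all genes, and without DPI library 1, 5 lay lower, beside 11.4%. Among the cell markers, 9 of 9 for B cells had a log2 fold change above 0 (median 1.89) and 3 rose, 4 of 14 for T and NK cells rose and 3 of 10 for hepatocytes fell, and their part was not tested. Ifih1 had 18.8, 12.9, 14.5 and 20.6 CPM with DPI, below both NC libraries, at a log2 fold change of -0.75 (SE 0.44, edgeR adjusted p = 0.559). Oas1a lay at 0.75 (SE 0.38, edgeR adjusted p = 0.495), Rsad2 at 1.64 (SE 1.02, edgeR adjusted p = 0.58) and Samd9l at -0.11 (SE 0.54). Rsad2 lay at 0.65 without NC library 1 and at 10.67 without NC library 2.

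Upstream of these genes, the interferons themselves were barely seen. Of 20 type I and III interferon genes listed, 18 were in the table, 13 of these had no count in any library, and none had enough counts to be tested. The highest count was 20, of Ifnz in vehicle library 1, and Ifnb1, the interferon that responding cells make early, had 1 count in all, in vehicle library 2. At this depth, counts of 0 allow up to 3 counts in a library. The receptor genes Ifnar1 and Ifnar2 and the signalling genes Jak1, Tyk2 and Stat2 were all expressed, and none of these passed the threshold in any comparison, with 1 nominal edgeR p under 0.05, of Tyk2 with DPI against NC. Log2 fold changes for HFD vehicle against NC were -0.05 for Ifnar1, 0.28 for Ifnar2, 0.08 for Jak1, -0.87 for Tyk2 and 0.17 for Stat2. For DPI against vehicle they were -0.17, 0.18, -0.40, -0.05 and -0.59 in the same order.

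For each comparison the shares of all genes that rose or fell were those given above. Of the 18 listed genes that induce interferon 17 were tested, and 3 rose with HFD, namely Tlr9, a receptor for unmethylated DNA (log2 fold change 2.03, SE 0.86), Tbk1, the kinase of IRF3 (1.30, SE 0.56), and Trim25, a ligase that acts on RIG-I (1.11, SE 0.48). With DPI against vehicle, 2 fell. Tlr7, a receptor for single-stranded RNA, had 193, 51.0 and 96.6 CPM with vehicle and 53.1, 35.3, 38.6 and 51.4 CPM with DPI, and it fell by 1.34 on the log2 scale (SE 0.39, edgeR adjusted p = 0.999). DPI libraries 1 and 4 overlapped vehicle library 2. Tlr9 fell by 1.45 on the log2 scale (SE 0.66, edgeR adjusted p = 0.999), with 73.7, 4.35 and 56.5 CPM in the vehicle libraries, so its difference in both comparisons came with a vehicle library 2 below every other library. With DPI against NC, Ticam1, the adaptor of TLR3 and TLR4, fell by 1.17 on the log2 scale (SE 0.41). Of 12 negative regulators, 2 rose with HFD, Rnf125, a ligase that marks RIG-I for degradation, by 4.05 (SE 0.89) and Socs1, an inhibitor of JAK kinases, by 2.04 (SE 0.53) on the log2 scale. Both also rose with DPI against NC, by 3.71 and 1.16, and 0 of 12 passed with DPI against vehicle. Socs1 had 7.29 and 7.28 CPM with NC, 27.8, 22.3 and 40.1 CPM with vehicle and 13.0 to 20.7 CPM with DPI, so every vehicle library lay above every DPI library.

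Further interferon-stimulated genes were counted from a separate list that shares no gene with the 34. Of 66 tested of 73 listed, 14 rose and 1 fell with HFD (median 0.32), 0 passed with DPI against vehicle (median -0.07, 1 nominal edgeR p under 0.05), and 8 rose and 1 fell with DPI against NC (median 0.33). The shares of all genes tested were those given above, 7.03% higher and 4.63% lower with HFD, and 6.24% and 3.05% with DPI against NC. Oas1g had no count in either NC library and 29, 74 and 53 counts with vehicle, at least 19.9-fold higher when NC is set at 3 counts per library, and its reads can be shared with Oas1a. Lgals3bp, a secreted glycoprotein gene, rose by 2.18 (SE 0.52), and Pydc3, an interferon-inducible gene, by 1.85 (SE 0.47) on the log2 scale. The guanylate-binding proteins and immunity-related GTPases, which respond strongly to interferon gamma as well and attack vacuoles that hold pathogens, counted 3 of 16 tested that rose with HFD, a median of 0.76 and 14 of 16 above 0. With DPI against vehicle 0 of the 16 passed (median -0.24, 1 nominal edgeR p under 0.05), and with DPI against NC 3 rose (median 0.50). Gbp5 had 2 and 0 counts with NC and 130, 17 and 100 counts with vehicle, a ratio of summed counts scaled to library size of 95.3 (exact 95% interval 26.1 to 791, counting error only). Tgtp1 rose by 4.04 (SE 1.39) on the log2 scale, and Gbp10 had no count with NC and 7, 22 and 0 counts with vehicle.

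Within the set, changes were set beside the promoter letters, with no test. For HFD vehicle against NC, the median log2 fold change was 0.26 over the 12 genes with a match and 0.43 over the 13 without. For DPI against vehicle the medians were -0.32 and -0.14, and for DPI against NC they were 0.00 and 0.19, so in each comparison the median was lower over the genes with a match. Neither Isg20 nor Samd9l held a match, while Ifit3 held 2, and Zbp1, Oas2 and Mx2 were among the 9 genes whose promoters were not in the table.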

How the data were processed

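Counts from 9 RNA-seq libraries of sorted mouse liver macrophages were used, 2 NC, 3 HFD vehicle and 4 HFD DPI, grouped by the sample labels, which name a separate mouse for each library. A figure legend of the study names more mice per group than there are libraries here, and how they relate is not stated. The authors aligned polyA RNA reads to mm10 and deposited a table of raw counts, whole numbers with no normalization. The methods name bowtie2 and RSEM, and the submitters' processing notes name TopHat2 and edgeR. Every column of the deposited table belonged to a mapped library. Reads were amplified and carry no molecular identifiers, so intervals and the floor of 3 counts describe counting error alone.

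Tests used edgeR 4.0.16 (R 4.3.3) with filterByExpr, TMM factors and the quasi-likelihood test, with the 3 groups in a single fit, whose biological coefficient of variation was 0.65. Benjamini-Hochberg adjustment ran over the 11393 genes tested. The methods name edgeR but not the quasi-likelihood test, which was chosen here. The threshold of the methods asks for an unadjusted p under 0.05 and a log2 fold change of 1 or more in either direction. The p-values are two-sided, and log2 CPM used a prior count of 2. The test was checked on simulated counts. Members, lists, tests and alternatives were chosen with earlier results of these data known.

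Members that passed the threshold in any comparison were described in full, and those with the smallest p were added until 12 were reached. Of each pathway list at most 3 genes past the threshold per comparison were named, by smallest p, and the receptor and signalling list was named whole apart from an item that is not reported here. The 12 genes without overlap when vehicle library 2 was left out were named after their values were seen. Alternatives were RLE factors, library size alone, DESeq2 1.42.0, no filter or at least 10 counts in every library, fits of 2 groups, the replicate number as a block, no Rn45s counts, thinned counts, and each of the 9 libraries left out in turn. Gene positions came from GENCODE M21 on GRCm38 and promoters from RefSeq on GRCm38.p6.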

Additional observations from a re-analysis of the deposited data

Results flagged for a closer look

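Within the 4 DPI libraries, 3 of the 34 genes had a single library far from the others, where the gap to the nearest library took up more of the group's range than Dixon's critical value at 95% allows. For normally distributed values, chance alone gives about 1 such gene in 20. The rule was not run over all genes tested, so whether 3 of 34 is unusual in these libraries was not tested. Ddx58 reached 22.0 CPM in DPI library 1, against 12.25 CPM in the nearest library. Oas1a reached 194.9 CPM in DPI library 1, against 94.07 CPM in the nearest. Isg20 reached 43.67 CPM in DPI library 4, against 25.5 CPM in the nearest. Groups of 2 and 3 libraries were not examined in this way.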

How the results depend on the processing

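Zbp1 and Isg20 passed the threshold for HFD vehicle against NC under every alternative run, and Isg20 also did so for DPI against NC. With library size alone, HFD vehicle against NC gave 3 members higher (4.73% of all genes), a median of 0.17 (all genes moved from 0.03 to -0.26) and 4 lower without overlap (19.2%), DPI against vehicle gave 0 lower (0.887%) and 1 lower without overlap (1.81%), and DPI against NC gave 1 higher (4.79%), 2 higher without overlap (8.44%) and a median of 0.05 (all genes -0.17). Shares in parentheses here are those of all genes under the same setting. With DESeq2, the adjusted counts were 2 for HFD vehicle against NC and 1 for DPI against NC, beside 312 and 219 of all genes, and 1 member was higher with DPI against vehicle (1.72%). With only the 2 groups compared, 3 members were higher for HFD vehicle against NC (5.49%), 1 was higher (1.49%) and 2 were lower (2.29%) for DPI against vehicle, and Isg20 there had a log2 fold change of 0. Without Rn45s, 1 member was lower without overlap for DPI against vehicle (2.82%). In thinned counts, 2 were lower without overlap for HFD vehicle against NC (12.6%), and for DPI against vehicle 2 were lower (1.4%) and 2 lower without overlap (2.82%). Counts without overlap under other settings were added after seeing the data.

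Deviations from the group mean of the 7 same-number pairs correlated at -0.022 to 0.084, and 0 of them over 0.1. The deviations of the NC libraries mirror each other, and these values cannot exclude pairing by the replicate numbers of the labels. With the number as a replicate block, in which DPI library 4 has a level of its own and drops out, DPI against vehicle gave 0 lower (2.2%) and DPI against NC gave 4 higher (4.71%) and a median of 0.49 (all genes 0.08). Among the 12 members described in full, the log2 fold changes that changed sign under the replicate block were those of Ifi44 for HFD vehicle against NC (0.05), Isg20 for DPI against vehicle (-0.24) and Samd9l for DPI against NC (0.03). Over all 34 members 27 were above 0 for HFD vehicle against NC and 26 for DPI against NC, beside 24 and 23 without the block.

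Leaving out each of the 9 libraries in turn, HFD vehicle against NC gave 0 to 5 members past the adjusted p, 3 to 8 higher, 0 to 1 lower, 13 to 21 higher without overlap, 1 to 5 lower without overlap and a median of 0.46 to 0.58. The shares of all genes moved as well, with 1 to 568 genes past the adjusted p, 5.97% to 14.5% higher, 3.07% to 6.82% lower, 15% to 34.6% higher without overlap and 11.6% to 29.2% lower without overlap. DPI against vehicle gave 0 to 1 higher, 0 to 2 lower, 0 to 1 higher without overlap, 0 to 12 lower without overlap and a median of -0.49 to -0.08, beside 0.913% to 2.23%, 0.573% to 2.74%, 3.18% to 9.49% and 2.48% to 10.3% of all genes for the 4 counts in that order. DPI against NC gave 0 to 5 past the adjusted p, 2 to 5 higher, 0 to 1 lower, 4 to 12 higher without overlap, 3 to 6 lower without overlap and a median of 0.06 to 0.40, which lay under that of all genes only without NC library 2 (0.17 against 0.35). Over all genes these were 1 to 572 past the adjusted p, 5.04% to 14.7% higher, 2.36% to 6.6% lower, 11.6% to 31.2% higher without overlap and 7.67% to 26.1% lower without overlap. Among the same 12 members, signs changed for HFD vehicle against NC in Ifi44 (-1.51 to 0.25) and Ifih1 (-0.48 to 0.14), for DPI against vehicle in Isg20 (-0.24 to 0.12), Bst2 (-0.49 to 0.06), Oas1a (-0.08 to 0.39) and Rsad2 (-0.41 to 0.04), and for DPI against NC in Samd9l (-0.48 to 0.07). Other members changed sign too, and the members above 0 numbered 23 to 28, 5 to 14 and 20 to 25 in these comparisons. A lone NC library was assumed to vary like the other groups, and without NC library 2 the fitted changes of Mx2 and Rsad2 rest on 0 NC counts and depend on the prior count. The cause of these differences was not tested. Over all settings, 246 of the summary values stayed and 60 moved, and of the values of these 12 genes 571 stayed, 22 gained and 32 lost the threshold, and 13 changed sign.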
